A study of Mus musculus with 13 samples.

Results

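A set of 10 genes of natural killer (NK) cells and cytotoxic granules were followed across normal lung, tumor-bearing lung and mammary tumor of mice. They are Nkg7, Eomes, Tbx21, Gzma, Gzmb, Prf1, Ncr1, Klrd1, Klrk1 and Il2rb, taken by symbol from the deposited tables, and all 10 were found among 46679 gene IDs. The mice were female FVB, 10 weeks old at death. Normal lung came from 4 mice without a tumor, numbers 6886, 6887, 6888 and 6893. Tumor-bearing lung came from 4 mice, numbers 6877, 6879, 6880 and 6881, which at 8 weeks of age had received 250000 Met1 cells in an inguinal mammary fat pad. Breast tumor came from mice 6877, 6880 and 6881 of that group, 2 weeks after the injection. Met1 is a mouse mammary tumor line, so all tumors grew from 1 line. The series asks how lungs respond to a tumor in the breast.

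Of the 13 libraries, preparation batch 1 held 2 normal lungs (6886 and 6888) and 3 tumor-bearing lungs (6879, 6880 and 6881). Batch 2 held all 4 normal lungs, with 6886 and 6888 prepared again, tumor-bearing lung 6877 and the 3 tumors. Libraries held 8321037 to 13982903 estimated counts. The protein-coding share of counts was 68.2 to 69.5% for batch 1 normal lungs and 45.6 to 59.0% for all other libraries. The tissue labels mostly matched their markers. Lamp3, a lamellar body protein of alveolar cells, averaged 207 CPM (counts per 1000000) in batch 2 normal lungs and 0.144 in the tumors. The epithelial adhesion gene Epcam averaged 34.7 and 347 CPM. Of 10 listed mammary tumor epithelium genes 7 were higher in tumor at an adjusted p below 0.05, against 29.4% of all genes. Krt19 of that list was lower, at 79.5 CPM in these lungs and 4.32 in the tumors.

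NK cells are innate lymphocytes that kill tumor and virus-infected cells. Their granules hold perforin, which opens the target cell membrane, and granzymes, proteases that enter through it and start cell death. Killing is set off by activating receptors such as NKp46 and NKG2D and is held back by inhibitory receptors that read class I molecules on the target. The lung holds many circulating NK cells, and NK cells can limit metastasis there. CD8 T cells use the same granule proteins, and most of the 10 genes are active in both cell types.

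Promoters are shown for the 4 genes that passed a test between tumor and lung and for Gzmb, which passed none and is set against Gzma. Klrk1 was higher in tumor than in normal and than in tumor-bearing lung, Nkg7 higher than in normal lung alone, and Gzma and Prf1 lower than in tumor-bearing lung alone. RefSeq, on GRCm38.p6, gave a window of 250 bases before to 50 after the transcription start for 8 of the 10 genes, not for Klrd1 and Il2rb. Capitals mark AGGTGT, the core of the site bound by T-box factors such as those encoded by Eomes and Tbx21, and TGTGGT, a core Runx site, each searched on both strands (ACACCT and ACCACA are the reverse complements). All 10 are protein-coding genes in GENCODE M21 on the same assembly. Klrk1 (chr6:129610323-129623864, minus strand) and Klrd1 (chr6:129591782-129598775, plus strand) are neighbours in the NK gene complex. Gzma lies at chr13:113093825-113100981, Gzmb at chr14:56258838-56262260, Prf1 at chr10:61297833-61304680 and Nkg7 at chr7:43437073-43438249. The windows are chr6:129623815-129624114 (- strand) for Klrk1, chr7:43436888-43437187 (+ strand) for Nkg7, chr13:113100932-113101231 (- strand) for Gzma, chr10:61297586-61297885 (+ strand) for Prf1 and chr14:56262285-56262584 (- strand) for Gzmb.
Klrk1: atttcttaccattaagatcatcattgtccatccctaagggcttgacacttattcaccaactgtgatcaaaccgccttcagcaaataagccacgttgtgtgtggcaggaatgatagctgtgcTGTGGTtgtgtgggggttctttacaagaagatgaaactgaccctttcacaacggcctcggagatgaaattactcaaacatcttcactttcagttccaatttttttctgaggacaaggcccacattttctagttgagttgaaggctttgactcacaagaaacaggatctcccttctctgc
Nkg7: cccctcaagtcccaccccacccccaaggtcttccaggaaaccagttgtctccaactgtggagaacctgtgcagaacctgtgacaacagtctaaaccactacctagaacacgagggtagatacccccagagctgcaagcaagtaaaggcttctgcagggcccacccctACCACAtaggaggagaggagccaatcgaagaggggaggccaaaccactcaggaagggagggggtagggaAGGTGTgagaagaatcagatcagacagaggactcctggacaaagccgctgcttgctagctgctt
Gzma: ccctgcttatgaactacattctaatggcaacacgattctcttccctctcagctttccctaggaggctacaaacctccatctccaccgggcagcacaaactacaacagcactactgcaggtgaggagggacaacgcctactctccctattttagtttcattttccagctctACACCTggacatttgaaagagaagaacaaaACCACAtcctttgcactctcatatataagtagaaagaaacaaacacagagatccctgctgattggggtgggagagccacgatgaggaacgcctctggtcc
Prf1: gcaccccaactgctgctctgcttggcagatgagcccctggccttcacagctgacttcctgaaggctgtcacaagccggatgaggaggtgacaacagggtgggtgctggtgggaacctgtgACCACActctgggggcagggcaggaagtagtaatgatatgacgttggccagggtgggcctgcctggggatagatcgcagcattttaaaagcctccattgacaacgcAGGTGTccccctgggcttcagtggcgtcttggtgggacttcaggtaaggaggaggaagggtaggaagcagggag
Gzmb: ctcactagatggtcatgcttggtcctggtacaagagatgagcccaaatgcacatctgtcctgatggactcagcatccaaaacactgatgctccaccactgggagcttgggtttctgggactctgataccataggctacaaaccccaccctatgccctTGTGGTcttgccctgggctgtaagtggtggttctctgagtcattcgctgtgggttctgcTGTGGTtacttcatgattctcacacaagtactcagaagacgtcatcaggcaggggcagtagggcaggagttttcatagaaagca
The T-box letters were in 3 of the 8 promoters, those of Nkg7, Gzma and Prf1, and in 13.7% of all 32851 promoter windows. Their first base lay 14 bases before the RefSeq start in Nkg7, 24 in Prf1 and 80 in Gzma. RefSeq starts and GENCODE gene ends differ for some genes. In Nkg7 the T-box letters lie inside the GENCODE gene, and the Gzmb window lies wholly outside it. The Runx letters were in 6 of the 8, those printed and Ncr1, and in 16.8% of all windows. Gzmb held them 2 times, with first bases 93 and 34 bases before the RefSeq start. These matches describe letters only.

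Every member was a low-count gene, with 4 to 151 estimated counts per library, and each passed the filter on low counts in all 3 comparisons. Levels are CPM on a single scale for the 13 libraries. In bulk tissue, fewer cells of a type and less RNA per cell cannot be told apart. Batch moved some members in the same mice: in both repeated normal lungs the batch 2 library was higher for Gzma, by 0.76 to 0.80 on the log2 scale, and for Nkg7, by 0.52 to 1.04. The other 8 members shifted by less than that range or in opposite directions, for example Prf1 by −0.12 to 0.03 and Klrd1 by −0.60 to 1.08.

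**Figure D1:**
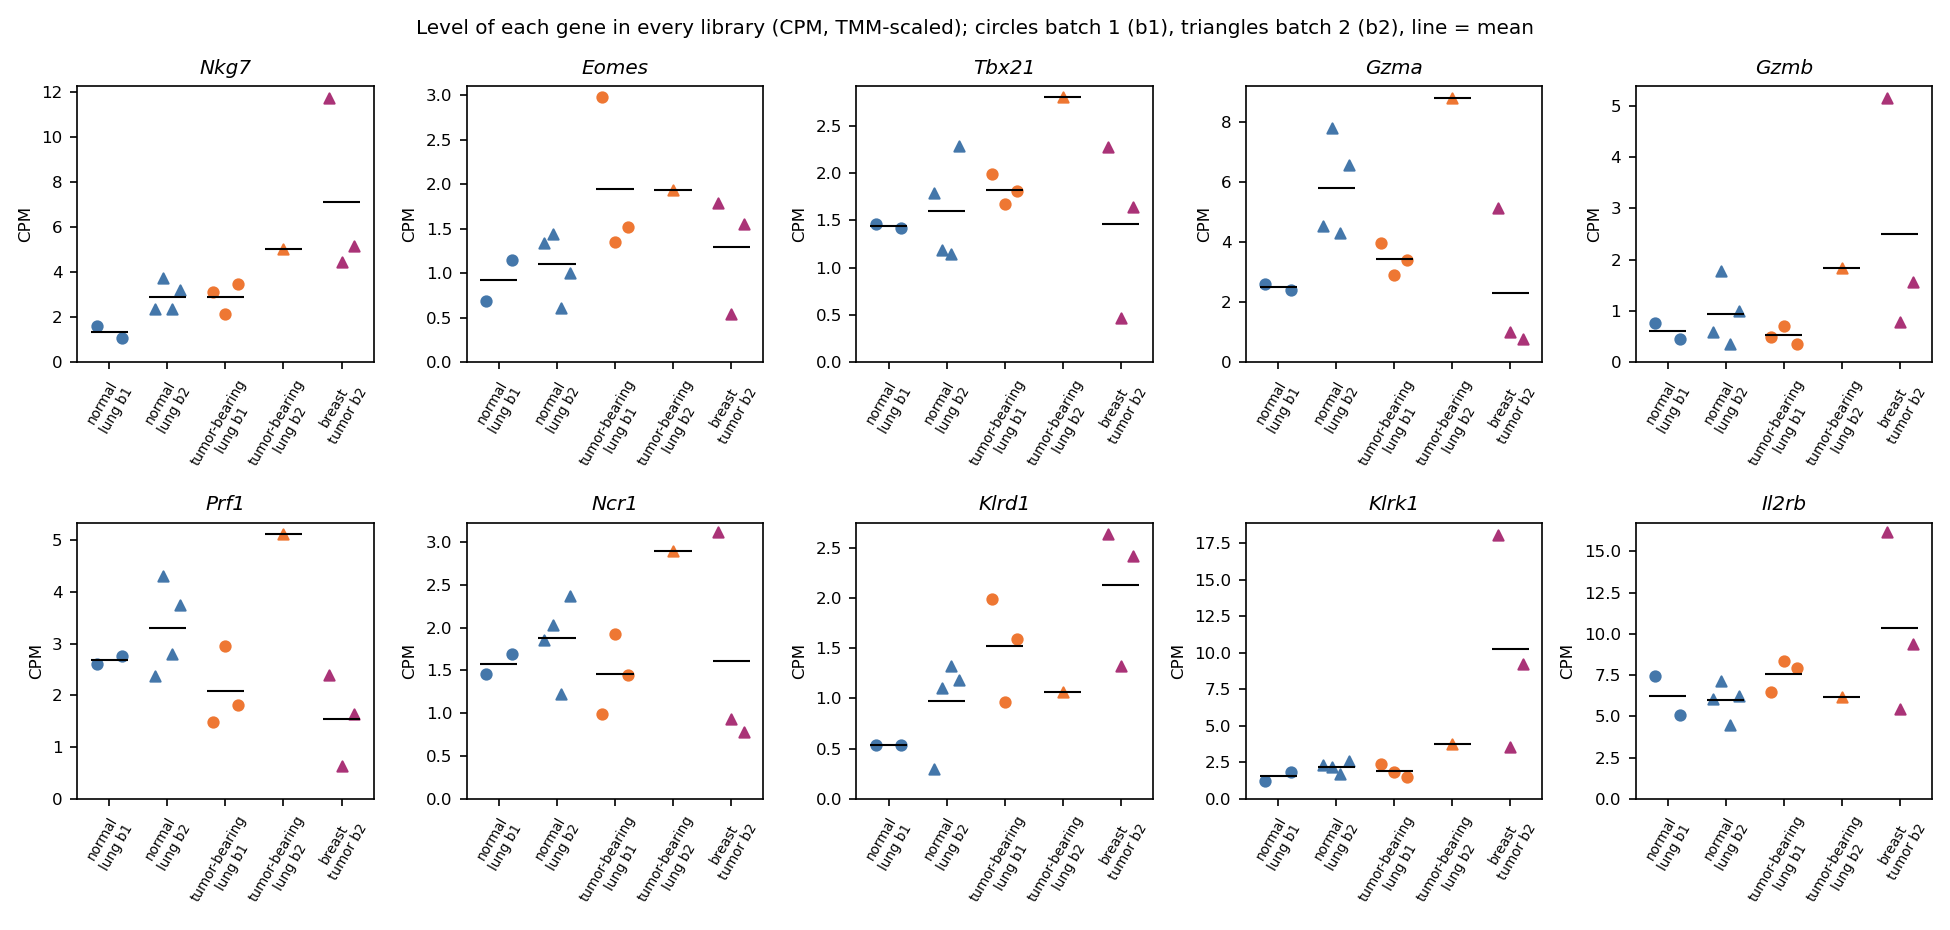
Level of each gene in every library, in CPM on the vertical axis, by tissue and preparation batch (b1 circles, b2 triangles) with the mean as a line. Klrk1 in the 3 tumors, at 3.51 to 18.08 CPM, lies above all normal lungs, and Gzma is higher in batch 2 lungs than in batch 1 lungs of the same kind.

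Per gene length, in TPM, which scale each gene by its length, the members formed a different order in tumor than in lung. In normal lung Gzma had the highest median, 0.579 TPM over 6 libraries (range 0.424 to 0.878), with Nkg7 at 0.532 (0.306 to 0.688), and the ranges of these neighbours overlap. Il2rb followed at 0.226 and Klrd1 at 0.222 TPM. At the bottom stood Gzmb at 0.0598 and Eomes at 0.0331 TPM, with ranges that overlap too. Tumor-bearing lung had a similar order, in which only neighbours changed places. There Nkg7 (median 0.496 TPM) and Gzma (0.354) came first, and Eomes (0.0399) and Gzmb (0.0335) last. In tumors Nkg7 ranked first in all 3 libraries, at 0.714 to 2.44 TPM. Klrd1 had a median of 0.565 TPM in tumors and Klrk1 of 0.464, while Gzma had 0.0986. Klrk1 thus took a median rank of 3 of 10 in tumors against 7 in normal lung, and Gzma a median rank of 5 against 1. Eomes was last in all 3 tumors.

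For lung with a tumor elsewhere in the body, none of the 10 members passed the test against normal lung (edgeR quasi-likelihood with batch as a term, 4 lungs a group, Benjamini-Hochberg over 16727 genes), and 0.0359% of all genes did. At an unadjusted p below 0.05 there were 2 members, Nkg7 and Eomes, against 14% of all genes. DESeq2 called none of the 2 members for which it gave an adjusted p, where it called 3.83% of genes, and voom called none of the 10. Estimates were positive for 9 of 10, with a median log2 difference of 0.41 against 0.01 over all genes tested. On log2(TPM + 0.1) only 3 of 10 were positive and the members' median was −0.14, while the median of all genes moved to −0.54. The members, with medians of 0.0331 to 0.579 TPM in normal lung, lie near the added 0.1, which draws their differences toward 0. Their median above that of all genes on this scale therefore cannot show a rise.

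Nkg7, a granule membrane protein of cytotoxic lymphocytes, had 1.61 and 1.07 CPM in batch 1 normal lungs and 3.11, 2.12 and 3.48 in the tumor-bearing lungs 6879, 6880 and 6881 of that batch. In batch 2 it had 2.38, 3.73, 2.37 and 3.19 CPM in normal lungs 6886, 6887, 6888 and 6893, and 5.02 in tumor-bearing lung 6877. Each tumor-bearing lung was above every normal lung of its own batch. The log2 difference was 0.88 (SE 0.30, adjusted p = 0.277).

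Eomes and Tbx21 (T-bet) encode the T-box factors that drive NK cell maturation and cytotoxic genes. Eomes had 0.69 and 1.15 CPM in batch 1 normal lungs, 2.98, 1.35 and 1.52 in batch 1 tumor-bearing lungs, 0.61 to 1.44 in batch 2 normal lungs and 1.93 in lung 6877. Its log2 difference was 0.91 (SE 0.40, adjusted p = 0.356). In the same order of groups Tbx21 had 1.46 and 1.42, then 1.67 to 1.99, then 1.14 to 2.28, then 2.80 CPM, with a log2 difference of 0.47 (SE 0.31, adjusted p = 0.520). In GENCODE M21 Eomes overlaps the antisense gene Gm33460, whose reads cannot be told apart from its own unless counting used strand, which is not given in the sources used here.

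Gzma had 2.61 and 2.40 CPM in batch 1 normal lungs, 3.98, 2.90 and 3.41 in batch 1 tumor-bearing lungs, 4.30 to 7.79 in batch 2 normal lungs and 8.79 in lung 6877. Its log2 difference was 0.39 (SE 0.22, adjusted p = 0.461). So 4 members, Nkg7, Eomes, Tbx21 and Gzma, were higher in every tumor-bearing lung than in every normal lung of the same batch, as were 4.99% of all genes, while 6.38% were lower in this way and no member was. On the TPM scale 0 of the 10 members were higher or lower in this way, against 0.167% of all genes higher and 28.5% lower. That count was made after the values were seen. Its batch 2 part rests on lung 6877 alone, and normal mice 6886 and 6888 enter in both batches. With both batches pooled the groups overlapped for all 10 members, and did not for 5.7% of all genes.

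The remaining granule genes and receptors overlapped in at least 1 batch. Klrd1, the CD94 chain that pairs with NKG2 receptors, had 0.54 and 0.53 CPM in batch 1 normal lungs and 1.99, 0.97 and 1.59 in batch 1 tumor-bearing lungs, but in batch 2 normal lungs had 0.30 to 1.32 and lung 6877 had 1.06 CPM (log2 difference 0.88, SE 0.46, adjusted p = 0.422). Klrk1 (NKG2D) had a log2 difference of 0.43, Il2rb (the beta chain of the receptors for interleukin 2 and interleukin 15) of 0.15, Ncr1 (NKp46) of 0.11, Gzmb of 0.06 and Prf1 (perforin) of −0.07, each within 2 SE of 0. Prf1 went both ways: in batch 1 normal lungs had 2.61 and 2.75 CPM and tumor-bearing lungs 1.49, 2.96 and 1.81, while in batch 2 lung 6877 had 5.12 CPM against 2.38 to 4.32.

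Markers of other immune cells were followed beside these genes in lung, and none of those tested passed. Neutrophil genes were positive for 9 of 9 tested, with a median log2 difference of 2.32 and 4 whose groups did not overlap. Their summed level was 24.6 to 25.7 CPM without and 81.0 to 214 CPM with a tumor in batch 1, and 31.7 to 88.2 and 190 CPM in batch 2, with Ly6g and Elane at 0 in all 4 tumor-bearing lungs. B cell genes were positive for 10 of 10, with a median of 0.59. Macrophage and monocyte genes were positive for 8 of 13 (median 0.03) and plasmacytoid and dendritic cell genes for 6 of 10 (0.13). Genes of type 2 and 3 innate lymphoid cells were positive for 3 of 6 (0.10) and mast cell and basophil genes for 2 of 3 (0.01). Of 16 tested T cell genes 14 were positive, with a median of 0.25. For batch 1 their summed level was 45.2 to 58.5 CPM without and 73.2 to 80.9 CPM with a tumor, for batch 2 it was 55.5 to 103 and 84.7 CPM, and none was at 0 in a whole group. The members' own sum was 18.4 to 20.4 and 24.8 to 25.9 CPM in batch 1, and 20.3 to 32.7 and 39.4 CPM in batch 2. The part of these cell types in the values of the members was not tested.

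Against batch 2 normal lungs, 2 of 10 members were higher in tumor and none was lower (edgeR, 3 tumors against 4 lungs, 1 batch). Of all 18038 genes tested 29.4% were called higher and 27.4% lower, so the members' count was below the background share of 56.8%. The groups did not overlap for 3 members, Klrk1, Nkg7 and Klrd1, all higher in tumor, while 29.6% of all genes lay wholly higher and 59.9% did not overlap in either direction. The median log2 difference was 0.51 for the members and −0.02 for all genes.

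Klrk1 encodes NKG2D, the activating receptor for stress ligands on tumor cells, which in mice is also found on activated CD8 T cells. It had 18.08, 3.51 and 9.20 CPM in tumors 6877, 6880 and 6881, and 2.31, 2.20, 1.67 and 2.55 in normal lungs 6886, 6887, 6888 and 6893. All tumors exceeded all normal lungs, and the tumors spread over a wider range than the lungs. Klrk1 rose 4.66-fold (log2 2.22, SE 0.48, adjusted p = 0.00323). It passed in each of the 16 alternatives run, with adjusted p from 6.54e-05 to 0.0384, though without tumor 6877 its log2 difference was 1.53.

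Nkg7 had 11.73, 4.45 and 5.15 CPM in the same tumors and 2.38, 3.73, 2.37 and 3.19 in the normal lungs. It rose 2.42-fold (log2 1.27, SE 0.37, adjusted p = 0.0163). Without tumor 6877 the log2 difference was 0.70 and the adjusted p 0.0656, and limma on log2 TPM missed the threshold too, with adjusted p of 0.0507 and 0.0675 for pseudocounts of 0.1 and 1.

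Klrd1 had 2.63, 1.33 and 2.42 CPM in tumors and 0.30, 1.10, 1.32 and 1.19 in the normal lungs. The lowest tumor and the highest lung nearly met, and the log2 difference of 1.13 (SE 0.49) had an adjusted p of 0.0756. Il2rb had 16.16, 5.46 and 9.36 CPM in tumors and 4.48 to 7.11 in the normal lungs (log2 0.79, SE 0.35, adjusted p = 0.0784). Without tumor 6880, which was the lowest tumor for both, Klrd1 and Il2rb passed the test, with adjusted p of 0.0455 and 0.0101. Eomes, Tbx21 and Ncr1, whose product NKp46 is the receptor most restricted to NK cells among these genes, had log2 differences of 0.22, −0.15 and −0.27, none past the test. Ncr1 was at 3.11 CPM in tumor 6877 and at 0.94 and 0.78 in the others, with 1.23 to 2.37 in the normal lungs, and without tumor 6877 it was lower (log2 −1.13, adjusted p = 0.0387).

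**Figure D2:**
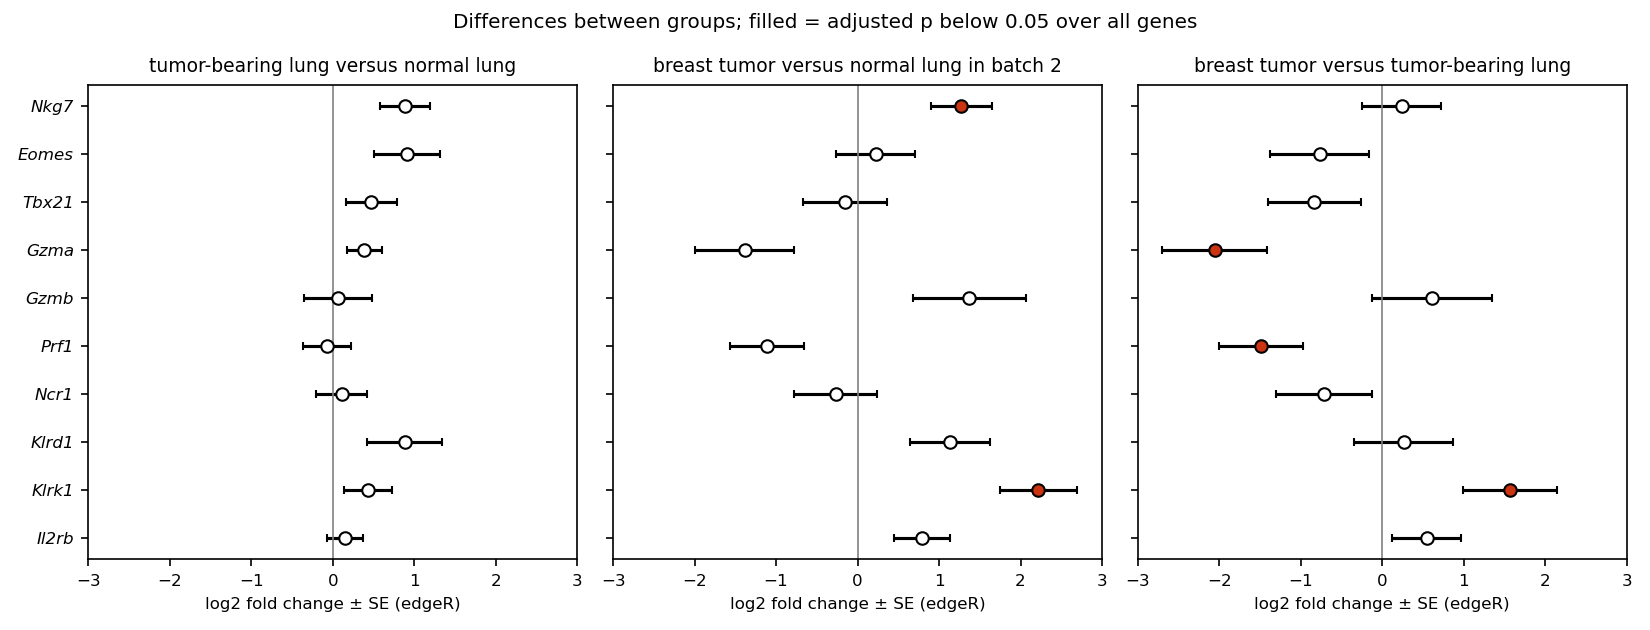
Log2 fold change with its SE for each gene in the 3 comparisons (edgeR), filled where the adjusted p over all genes is below 0.05. No gene is filled for tumor-bearing against normal lung, Nkg7 and Klrk1 are filled to the right for tumor against normal lung, and Klrk1 to the right with Gzma and Prf1 to the left for tumor against tumor-bearing lung.

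The killing effectors had estimates of both signs in tumor. Gzma, a tryptase of the granules, had 5.15, 1.01 and 0.78 CPM in tumors and 4.54, 7.79, 4.30 and 6.57 in batch 2 normal lungs (log2 −1.39, SE 0.61, adjusted p = 0.0779). Prf1 had 2.39, 0.62 and 1.64 CPM in tumors and 2.38, 4.32, 2.81 and 3.74 in these lungs (log2 −1.11, SE 0.45, adjusted p = 0.0608). Tumor 6877 alone reached the lowest lung for either gene. Without it both passed as lower, Gzma with a log2 of −2.69 and an adjusted p of 0.000803 and Prf1 with −1.55 and 0.0251. Voom, limma on log2 TPM with either pseudocount and the fit of 11 libraries with a batch term also called both lower, with adjusted p from 0.014 to 0.0387. The 2 higher and 0 lower calls of edgeR thus became 2 and 2 with voom and with 11 libraries, 1 and 2 on log2 TPM, and 2 and 1 with protein-coding genes alone. Gzmb, the granzyme that cuts after aspartate and activates caspases, had 5.15, 0.78 and 1.56 CPM in tumors and 0.60, 1.78, 0.35 and 1.00 in the normal lungs (log2 1.37, SE 0.70, adjusted p = 0.121). Without tumor 6880 it passed as higher (log2 1.81, adjusted p = 0.0404).

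The balance of the granzymes was compared within each library, where depth is shared. Tumors 6877, 6880 and 6881 held 43, 10 and 20 Gzmb counts beside 43, 13 and 10 Gzma counts. The batch 2 normal lungs held 8, 21, 4 and 11 Gzmb counts beside 61, 92, 49 and 72 Gzma counts. That is 76.9 to 200 Gzmb counts per 100 Gzma counts in tumors and 8.16 to 22.8 in these lungs. The log2 ratio of Gzmb to Gzma in TPM + 0.1 was −0.39 ± 0.43 (SD, n = 3) in tumors and −2.34 ± 0.11 (SD, n = 4) in normal lungs. In an exact two-sided permutation test the difference of 1.96 had p = 0.0286, the smallest that 35 arrangements allow, and 0.0571 adjusted over the 2 ratio tests, which misses 0.05. The size rests on what is added to low values, since Gzmb itself was at 0.0204 to 0.111 TPM in normal lungs: the difference was 2.97 on estimated counts and 0.92 with a pseudocount of 0.5. In lung the ratio was −1.88 ± 0.33 with and −2.08 ± 0.34 without a tumor (SD, n = 4 each). The batch-adjusted difference there was 0.06 (exact two-sided permutation within batches, p = 0.733, smallest possible 0.0333), and −0.35 on estimated counts.

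**Figure D3:**
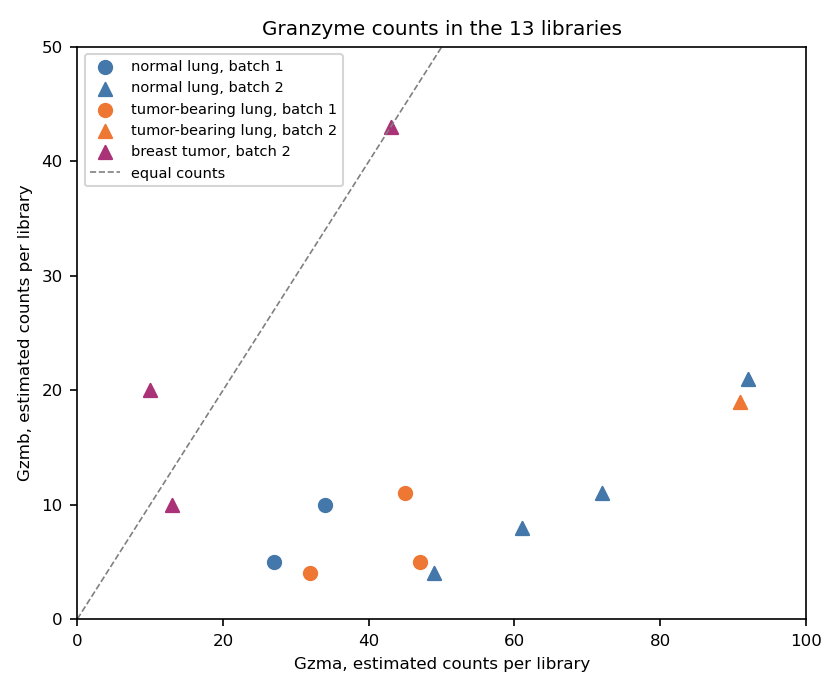
Estimated counts of Gzma (horizontal) and Gzmb (vertical) in each of the 13 libraries, with a dashed line of equal counts. The 3 tumors lie at or near the line, at 43 and 43, 13 and 10, and 10 and 20 counts, while every lung lies far below it.

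Against tumor-bearing lung, 3 of 10 members passed, 1 higher and 2 lower in tumor (edgeR, 11 libraries with batch as a term), against 46.3% of 18297 genes, 22.6% higher and 23.7% lower. All tumors were of batch 2 and only 1 of the 4 tumor-bearing lungs was, so the batch term rests on the lungs. The tissues overlapped for all 10 members, and did not for 54% of all genes. Klrk1 was higher by a log2 of 1.57 (SE 0.58, adjusted p = 0.0425), from 3.77 CPM in lung 6877 and 2.36, 1.80 and 1.52 in lungs 6879, 6880 and 6881. Gzma was lower by 4.15-fold (log2 −2.05, SE 0.64, adjusted p = 0.0209) and Prf1 by 2.80-fold (log2 −1.49, SE 0.52, adjusted p = 0.0336). For Gzma the tumors had 5.15, 1.01 and 0.78 CPM and the tumor-bearing lungs 8.79 in batch 2 and 2.90 to 3.98 in batch 1. For Prf1 the tumors had 0.62 to 2.39 CPM and these lungs 5.12 in batch 2 and 1.49 to 2.96 in batch 1. The means for Prf1, without a batch term, were 1.55 CPM in tumors and 2.85 in these lungs. Between batches the repeated normal lungs 6886 and 6888 shifted for Prf1 by a log2 of −0.12 and 0.03. The other 7 members ranged from −0.83 (Tbx21) to 0.62 (Gzmb), none past the test.

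These 3 calls rest on few libraries. The Klrk1 call was lost in 13 of 22 alternatives, among them leaving out any 1 of 9 of the 11 libraries, with adjusted p from 0.0502 without normal lung 6886 to 0.165 without tumor 6877, where the log2 difference was 0.90. It was kept without tumor-bearing lung 6879 (adjusted p = 0.0479) and without tumor 6880 (0.00325). The Gzma call was lost in 4, with adjusted p of 0.0548 without tumor 6880, 0.0954 without tumor-bearing lung 6877, 0.0885 in batch 2 alone and 0.201 without the batch term. Without tumor 6877 the Gzma difference was −3.34. The Prf1 call was lost in 11, among them without normal lung 6886 (adjusted p = 0.0517) or 6887 (0.0513), without tumor-bearing lung 6880 (0.0509) or 6877 (0.277) and without tumor 6880 (0.0747) or 6881 (0.0604). Ncr1 passed as lower without tumor 6877 (log2 −1.55, adjusted p = 0.0222). With the mouse as a block, which compares tumor and lung of the same mice, Klrk1 (log2 1.87, adjusted p = 0.0248) and Gzma (−1.64, 0.0312) passed and Prf1 did not (−1.09, 0.134).

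Within mice 6877, 6880 and 6881 the tumor had more Klrk1, Nkg7, Klrd1 and Gzmb than the lung in 3 of 3 mice. Klrk1 was higher by a log2 of 2.21, 0.90 and 2.47, and Nkg7 by 1.20, 1.01 and 0.54. Klrd1 was higher by 1.19, 0.40 and 0.55, and Gzmb by 1.41, 0.11 and 1.70. For Gzmb mouse 6880 was close to a tie, with 10 counts in the tumor and 11 in the lung. Gzma, Prf1 and Tbx21 were lower in the tumor in 3 of 3 mice. Gzma differed by −0.75, −1.37 and −1.91, Prf1 by −1.05, −1.98 and −0.13, and Tbx21 by −0.28, −1.53 and −0.13. Il2rb was higher in 2 of 3 mice, and Eomes and Ncr1 in 1 of 3. In mouse 6877 both libraries were of batch 2. In the other 2 mice the lung was of batch 1 and the tumor of batch 2, so batch and tissue cannot be told apart there.

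**Figure D4:**
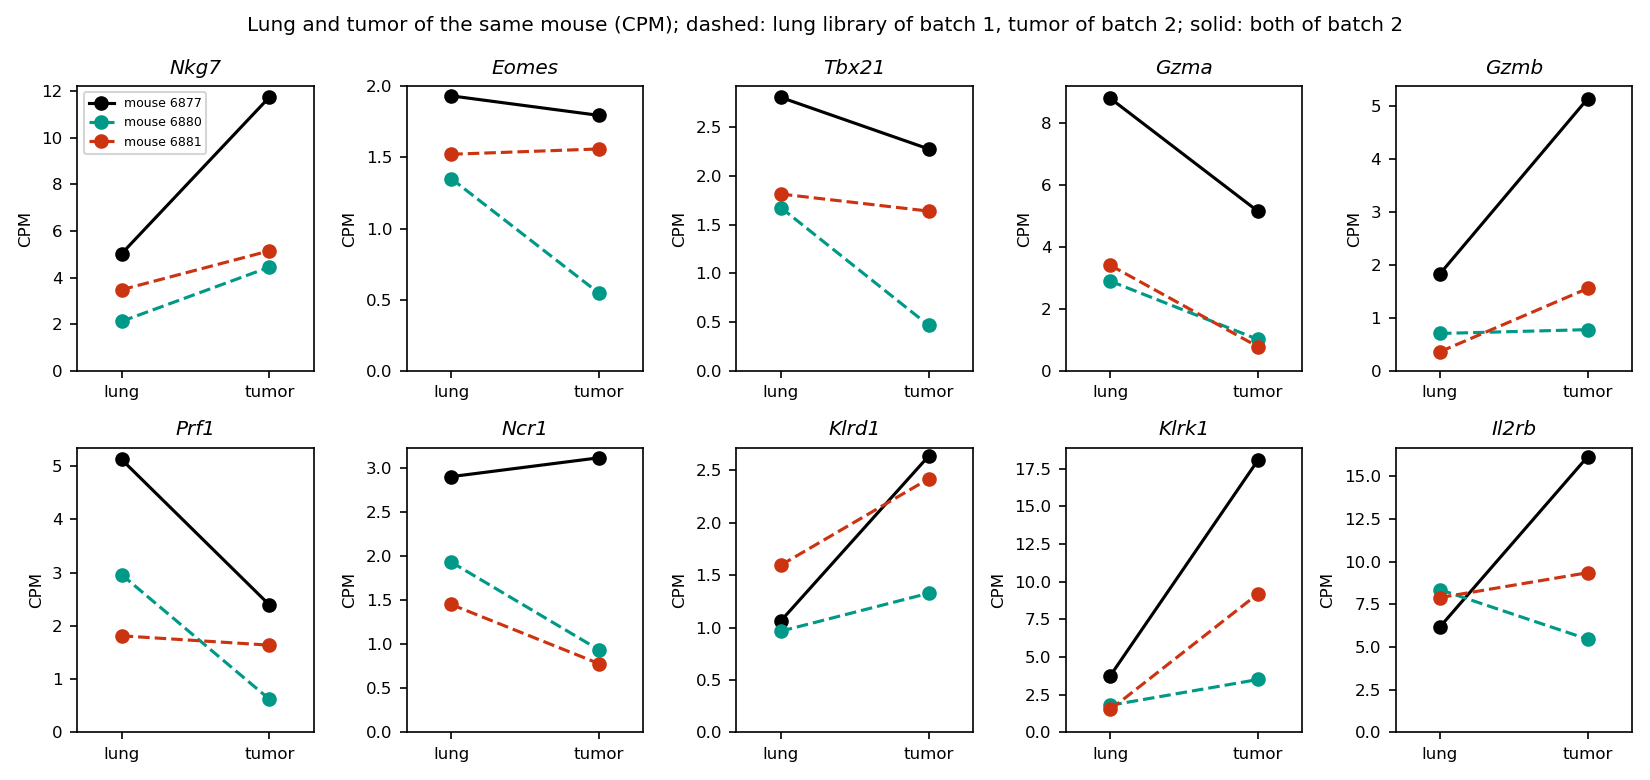
CPM of each gene in lung and tumor of mice 6877, 6880 and 6881, solid where both libraries are of batch 2 and dashed where the lung is of batch 1. Klrk1, Nkg7, Klrd1 and Gzmb are higher in tumor than in lung in 3 of 3 mice, and Gzma, Prf1 and Tbx21 lower in 3 of 3. Gzmb is nearly level in mouse 6880, at 0.71 CPM in lung and 0.78 in tumor.

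Other genes of the cytotoxic machinery moved in both directions in tumor. Of 21 granule and death effector genes, 12 were tested against normal lung, with 1 higher and 6 lower in tumor. Ctsw, a granule cathepsin of cytotoxic cells, was the 1 higher, named after its value was seen (log2 1.36, adjusted p = 0.0294). That call was lost without tumor 6877 (log2 0.75, adjusted p = 0.154) and without normal lung 6886, 6888 or 6893 (adjusted p 0.0667 to 0.0750). The lower ones included Serpinb9, the inhibitor that shields cells from granzyme B (log2 −1.75), Rab27a (−1.61) and Stx11 (−1.37), which dock and fuse granules, and the death ligand Tnfsf10 (−1.11). These genes are also active outside lymphocytes. Gzmc and Gzme, also named after their values were seen and too low to test, were listed at 0 in all lungs and reached 8 and 9 counts in a tumor. Of 31 further NK receptors and partners only 15 had enough counts to test, with Slamf6 higher (log2 1.44, adjusted p = 0.0167) and Itga2 (−2.11) and Cd226 (−1.72) lower. Cd226 had 3.57, 14.23, 3.69 and 3.38 CPM in normal lungs 6886, 6887, 6888 and 6893, and without lung 6887 its difference was −0.92 with an adjusted p of 0.0661. It was also lost without tumor 6877 or 6880 (0.106 and 0.0851), and Slamf6 was lost without tumor 6881 (log2 0.92, adjusted p = 0.0869). Over the 15 tested, 9 estimates were positive and 6 negative, with a median log2 difference of 0.07. Klrb1c, the NK1.1 gene, had 0.62 to 1.32 CPM in tumors and 1.14 to 1.86 in batch 2 normal lungs, ranges that overlap.

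Of the signals around NK cells, class I molecules were higher in tumor than in normal lung: H2-K1 by a log2 of 2.00, B2m by 1.63 and H2-D1 by 1.36, within 5 higher and 2 lower of 12 tested ligand genes. H60c, which encodes an NKG2D ligand, was lower at 0.13 against 2.40 CPM (log2 −3.95, adjusted p = 0.000284, and −4.55 without tumor 6881). Ulbp1, another NKG2D ligand gene, named after its value was seen, went the other way. It had 1.56, 2.73 and 2.03 CPM in tumors 6877, 6880 and 6881 and 0.35 to 1.00 in batch 2 normal lungs. For the ligand genes Raet1d, Raet1e and H60b the groups overlapped. Among 14 cytokine and receptor genes 4 were higher and 5 lower, led by Il18r1 (−3.71), Il18 (−2.78) and Il12rb1 (3.50). Among 12 trafficking genes 6 were higher and 3 lower, with Cx3cr1 at 2.57 and Ccr2 at 1.57, both also monocyte genes, and S1pr1 at −3.97 and Itga1 at −3.38, both also vessel or stromal genes. Of 17 listed NK transcription factors 5 were higher, such as Gata3 (2.44), and 4 lower, such as Zeb2 (−1.85) and Ets1 (−1.61). Gata3 averaged 129 CPM in tumors and 23.9 in batch 2 normal lungs. It is also in the lists of mammary tumor epithelium and of innate lymphoid cells of other types. The part of other cell types in the values of these factors was not tested. Of 14 adaptors Plcg2 (2.23) and Fcer1g (1.44) were higher and Sh2d1b1 (−1.48) and Syk (−0.75) lower. Sh2d1b1 was at −2.19 without tumor 6877 and was lost without tumor 6881 (adjusted p = 0.0624), and the Syk call did not hold when tumor 6877, tumor 6880, lung 6886 or lung 6887 was left out (adjusted p 0.0553 to 0.0888). Each of these shares stands beside 29.4% higher and 27.4% lower among all genes.

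T cell markers were followed beside the members in tumor too. Of 16 tested T cell genes 2, Cd8a (log2 1.69, adjusted p = 0.00614) and Icos (1.24, 0.0083), were higher than in normal lung and none was lower, against 29.4% higher and 27.4% lower among all genes. Estimates were positive for 13 of the 16 and negative for 3, with a median log2 difference of 0.35. Cd8a had 4.14, 8.19 and 11.97 CPM over the 3 tumors from lowest to highest and 1.49 to 3.47 in batch 2 normal lungs. The summed level of 17 T cell genes was 46.5 to 162 CPM in tumors, against 55.5 to 103 in batch 2 normal lungs, and none was at 0. The members summed to 19.1 to 68.5 CPM in tumors and 20.3 to 32.7 in these lungs. Macrophage and monocyte markers were higher for 9 and lower for 2 of 14 genes, and endothelial markers lower for 8 of 8. The part of these cell types in the members' differences was not tested.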

How the data were processed

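RNA of 20 mg of snap-frozen tissue was made into libraries from 100 ng after removal of ribosomal RNA and read as single 75 bp reads, per the labels. The submitters' processing notes name Salmon, DESeq2 1.18.1 and mm10. The authors deposited estimated counts and TPM per gene. The ratio of count to TPM was checked for 5152 genes above a TPM cutoff in every library. For each of them it was the same in all libraries but for 1 factor per library. Such a gene thus has 1 length for all libraries in these counts. The members were too low to enter this check. Counts were rounded to whole numbers. Gene names came from GENCODE M21 for 46201 of 46679 IDs.

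The 3 comparisons were fitted over all genes with edgeR 4.0.16 (TMM, filterByExpr with a minimum count of 10, quasi-likelihood test, Benjamini-Hochberg threshold 0.05) under R 4.3.3. Mice 6886 and 6888 entered the lung comparison and the 11-library fit with their batch 1 library. In the lung comparison each mouse counted once; in the 11-library fit mice 6877, 6880 and 6881 gave both a tumor and a lung. CPM used TMM-scaled library sizes over the 13 libraries, and log2 CPM a prior count of 2. Counting error limits low values, and PCR reads are not independent molecules. Alternatives were DESeq2 1.42.0, voom and log2 TPM in limma 3.58.1, other scaling and filters, protein-coding genes alone, other batch designs and leaving out each library. The granzyme ratio on estimated counts was added after seeing the data. Fits were also run on simulated counts with no batch effect and the same dispersion for all genes. That run cannot show how well changes in the members are detected.

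Members and gene lists were chosen with earlier results of these data known. Named genes are all members and at most 4 genes of a list with the smallest unadjusted p. The 5 genes most like the members' mean over 10 lung libraries are named too. Ctsw, Gzmc, Gzme, the NKG2D ligand genes other than H60c and the tissue checks fall outside this rule. The list genes with the smallest unadjusted p in the tumor and normal lung comparison, and Ctsw, were also refitted without each library, added after seeing the data. The written design gave the smallest p of 3 against 4 as above 0.05; counted by the size of the difference it is 0.0286. Tumors and lungs pair by mouse number in the labels; residuals of the pairs correlated at 0.179, 0.0355 and −0.133.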

Additional observations from a re-analysis of the deposited data

How the results depend on the processing

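For tumor-bearing against normal lung, 0 members passed in the main fit and in all 21 alternatives, though Gzmb was not tested in 3 of these and DESeq2 gave an adjusted p for 2 members only. Small estimates there changed sign. On log2(TPM + 1) the reversed values were −0.011 for Tbx21, −0.074 for Gzma, −0.023 for Gzmb, −0.051 for Ncr1, −0.015 for Klrk1 and −0.099 for Il2rb. On log2(TPM + 0.1) they were −0.074, −0.23, −0.18, −0.29, −0.10 and −0.37 for the same genes. The median of all genes moved to −0.23 and −0.54 on these scales. Without the batch term Gzma was at −0.033, Gzmb at −0.25 and Ncr1 at −0.047. Prf1 turned to 0.64 with the batch 2 libraries of the repeated mice, 0.091 with all 10 lung libraries and 0.63 in batch 2 alone, and Ncr1 to −0.058 in batch 1 alone. Leaving out each library in turn moved Gzmb between −0.19 and 0.33, Prf1 between −0.32 and 0.048, Il2rb between −0.029 and 0.29 and Ncr1 between −0.065 and 0.22.

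Against normal lung in batch 2, 4 members passed with voom and 4 with 11 libraries and a batch term (2 higher and 2 lower in each), 3 on log2(TPM + 1) and 3 on log2(TPM + 0.1) (1 higher and 2 lower), 3 with protein-coding genes alone (2 higher and 1 lower), and 2 to 5 when each library was left out. The highest counts were without tumor 6880 (5, all higher) and without tumor 6877 (4, of which 3 lower). Leaving out each library moved Tbx21 between −0.61 and 0.29, Eomes between −0.076 and 0.61 and Ncr1 between −1.13 and 0.068. Against tumor-bearing lung, 1 member passed on log2(TPM + 1), 1 on log2(TPM + 0.1), 1 without the batch term, 0 in batch 2 alone and 0 to 3 when each library was left out, with 0 without tumor-bearing lung 6877. With the mouse as a replicate block over all 13 libraries 2 members passed, 1 higher and 1 lower, and the members' median log2 difference was 0.14 in place of −0.23. Leaving out each library moved Nkg7 between −0.30 and 0.50, Klrd1 between −0.59 and 0.53 and Gzmb between −0.42 and 1.06. The causes were not tested. The granzyme ratio in lung turned to −0.35 on estimated counts; in tumor it was 2.97 on estimated counts and 0.92 with a pseudocount of 0.5. Members had 4 to 151 counts per library, and the size of change detectable at that depth was not tested.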

Other observations

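Among the members themselves, Gzma followed the rest most closely over the 10 lung libraries after each batch mean was taken off, with a Pearson r of 0.946 against the mean of the other 9, and Nkg7 had 0.759. Klrd1 and Prf1 had the lowest values, 0.306 and 0.286. The 5 genes outside the set whose level ran closest to the members' mean were Fam189a2 (r = 0.958), Lurap1l (0.949), Kptn (0.943), Elmo3 (0.936) and Top3a (0.923), out of 13620 genes searched. The libraries share batches, the normal mice 6886 and 6888 enter 2 times each, and so large a search over 10 libraries returns high values for some genes, so these are descriptions without a test.

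The highest mean of the members in lung, a log2 of 0.51 above the batch mean, was in tumor-bearing lung 6877, the mouse whose tumor also had the highest CPM of all 3 tumors for each of the 10 members. The lowest was in normal lung 6888 of batch 2, at −0.47. Batch 2 holds 1 tumor-bearing lung among 5 lungs and batch 1 holds 3 among 5, so taking off the batch mean leaves lung 6877 further above it than the others, at 0.23, 0.13 and 0.10, for the same difference between groups. A search for single libraries far from the other 3 of their group, over 22 groups of 4, found none.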
